A study of Mus musculus with 14 samples.

Results

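Fabp7, the brain fatty acid-binding protein, and 8 genes that are widely used to recognise astrocytes (Gfap, Aqp4, Aldh1l1, Slc1a3, Slc1a2, Gja1, Gjb6 and Slc4a4) were followed in the medial prefrontal cortex of mice after repeated social defeat. The genes were found through the RefSeq transcripts that the array's probes are annotated with, and this gave 16 probes for the 9 genes, of 20887 genes with a named probe and 14453 genes tested. All 9 genes passed the filter on dim probes and were well above background on all 14 arrays. Fabp7 was selected on its low signal in defeated mice on these arrays, so its differences from naive mice are given as a description with no test. The other 8 genes are standard astrocyte markers, and the list as a whole was drawn up with results of these arrays known.

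All mice were wild-type C57BL/6 animals. Their age and sex are not given in the sources used here. The susceptible group had 6 mice and the resilient group 3. Both had been defeated repeatedly by an aggressor and were then classed by their behaviour, and 5 naive mice had been moved between cages in place of defeat. All were perfused with cold buffered saline 4 h after the last session, a punch of 1.5 mm was taken from the medial prefrontal cortex, and each mouse gave 35 ng of RNA, labelled with 1 dye (Cy3), for an array of its own. The punch holds all cell types of the region, so fewer astrocytes and less RNA per astrocyte cannot be told apart. Values are log2 signal minus the 75th percentile of the same array, so a difference of 1 is a doubling and a value says nothing about the level of one gene relative to another. The labels speak of independent experiments on different mice without saying which mouse came from which.

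Astrocytes are the glial cells that clear glutamate and potassium from the space around synapses, take up water and ions at the end-feet that wrap blood vessels, and are joined to one another by gap junctions. Fabp7 carries long-chain polyunsaturated fatty acids inside radial glia and astrocytes and is known as a target of Notch signalling. Gfap is the intermediate filament that rises in reactive astrocytes after many kinds of injury, and its level is low in healthy cortical grey matter.

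The 14 arrays came from 3 slides, and slides 1 and 2 each carried susceptible, resilient and naive mice. Slide 3 was read on a separate day and carried 2 susceptible and 2 naive mice but no resilient mouse, and it stands apart for several genes, so its values are given separately where they do. Position on the slide went with treatment, with every defeated mouse in row 2 and every naive mouse in row 1, and the effects of row and of defeat cannot be told apart. Array brightness, the 75th percentile of log2 signal, ran between 8.39 and 9.08 on slide 3. On slides 1 and 2 it was 7.56 to 8.04 in the defeated mice and 7.14 to 7.25 in the naive mice, and its part in the differences was not tested. Markers of the labelled tissue were present: all 8 neuron markers, all 8 oligodendrocyte precursor markers and all 30 further astrocyte genes were above background on all 14 arrays.

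The promoters of Fabp7, Gfap and Aldh1l1 are shown because the values of these genes carry the comparisons below. Each runs from 250 bases before to 50 bases after the start of the gene in RefSeq (GRCm38.p6) and is written 5′ to 3′ on the gene's strand, with AGGTCA or its complement TGACCT, the half-site of many nuclear receptors, in capitals. Fabp7 lies on the plus strand at chr10:57784673-57784972, Gfap on the minus strand at chr11:102897151-102897450, and Aldh1l1 on the plus strand at chr6:90550543-90550842.
Fabp7: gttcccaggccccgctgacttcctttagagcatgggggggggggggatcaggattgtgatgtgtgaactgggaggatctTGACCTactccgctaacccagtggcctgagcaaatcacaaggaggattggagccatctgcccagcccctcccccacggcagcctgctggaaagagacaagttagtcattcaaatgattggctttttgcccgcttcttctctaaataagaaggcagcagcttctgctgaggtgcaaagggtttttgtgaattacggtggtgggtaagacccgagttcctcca
Gfap: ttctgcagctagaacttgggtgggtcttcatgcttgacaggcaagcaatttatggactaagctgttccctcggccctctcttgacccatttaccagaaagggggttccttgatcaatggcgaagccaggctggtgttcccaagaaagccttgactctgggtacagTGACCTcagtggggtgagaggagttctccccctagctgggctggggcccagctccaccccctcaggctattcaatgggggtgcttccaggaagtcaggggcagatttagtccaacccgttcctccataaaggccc
Aldh1l1: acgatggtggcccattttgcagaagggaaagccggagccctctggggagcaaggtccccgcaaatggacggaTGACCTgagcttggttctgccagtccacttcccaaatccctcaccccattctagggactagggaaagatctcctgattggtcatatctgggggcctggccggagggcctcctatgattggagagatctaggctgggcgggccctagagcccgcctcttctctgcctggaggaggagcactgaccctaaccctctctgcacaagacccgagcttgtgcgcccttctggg
Each holds 1 match. Counted from the start of the gene it begins at -171 in Fabp7, at -85 in Gfap and at -178 in Aldh1l1.

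Promoters of 8 of the 9 genes were searched, with that of Aqp4 left out, while the shares over all promoters leave out none. These 8 genes had 9 promoters, and a gene counted when any of its promoters held the motif, while the shares are per promoter. On either strand AGGTCA was present in 5 of these 8 (Fabp7, Gfap, Aldh1l1, Slc1a2 and Slc4a4) and in 16.3% of 32851 promoters of the same length. TGGGAA, the core that RBPJ of the Notch pathway binds, was present in 4 (Fabp7, Gfap, Aldh1l1 and Slc4a4) and in 25.6% of all promoters. CCAAT was present in 4 (Fabp7, Aldh1l1, Slc1a3 and Slc4a4) and in 37.4% of all promoters, and AGAACA, the half-site of the glucocorticoid receptor, in 1 (Slc1a3) and in 19.0% of all promoters. These 4 motifs were picked with the values known, none of them contains another, and a match is a description of these windows alone.

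Fabp7 had the lowest signal relative to naive mice of the 9 genes in both defeated groups. The values in the susceptible mice were 2.53 at the lowest, 2.66 at the median and 3.60 at the highest. The resilient mice had 2.73, 2.62 and 3.02, and the naive mice had 3.90, 3.81, 4.42, 4.24 and 4.05. No defeated mouse reached the lowest naive value, and the susceptible and resilient mice overlapped. The mean was 2.88 ± 0.44 in susceptible mice and 4.08 ± 0.25 in naive mice (SD, n = 6 and 5), a log2 difference of -1.21 ± 0.19 (SE). That is 43.3% of the naive signal, or 2.31-fold lower. In resilient mice the mean was 2.79 ± 0.21 (SD, n = 3), a log2 difference of -1.29 ± 0.23 (SE), 40.8% of the naive signal and 2.45-fold lower. Of all genes tested, 154 (1.07%) lay below every naive value in all mice of both defeated groups, as Fabp7 did. In the susceptible contrast alone 3.82% of all genes did not overlap in either direction and 1.49% lay below. Both contrasts use the same 5 naive mice.

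Between the defeated groups Fabp7 was tested, since this contrast itself did not choose it. Its low values in both defeated groups did, so the same mice entered the choice. The test is therefore not independent of the selection. The log2 difference of susceptible minus resilient mice was 0.09 ± 0.23 (SE, n = 6 and 3; limma adjusted p = 0.9999), with a 95% interval from -0.40 to 0.57. The interval holds a susceptible signal between 0.76 and 1.48 times the resilient signal. The test made 0 calls among all 14453 genes in this contrast (0%), and 104 genes had an unadjusted p under 0.05.

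The difference in Fabp7 was smaller on slide 3. The 2 susceptible mice there had 3.24 and 3.60, against 4.24 and 4.05 in the 2 naive mice of the slide, a log2 difference of -0.73. On slide 1 the difference was -1.24 (2 susceptible mice and 1 naive mouse), and on slide 2 it was -1.56 (2 and 2). The 4 susceptible mice on slides 1 and 2 spanned only 2.53 to 2.72, and the high values of the susceptible group all came from slide 3. For resilient mice the difference was -1.22 on slide 1 (2 and 1) and -1.09 on slide 2 (1 and 2). With the arrays of slide 3 left out, the differences from naive mice were -1.44 ± 0.16 in susceptible and -1.25 ± 0.17 in resilient mice. Whether the difference between slides comes from the scan, the hybridisation or the mice was not tested.

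**Figure D1:**
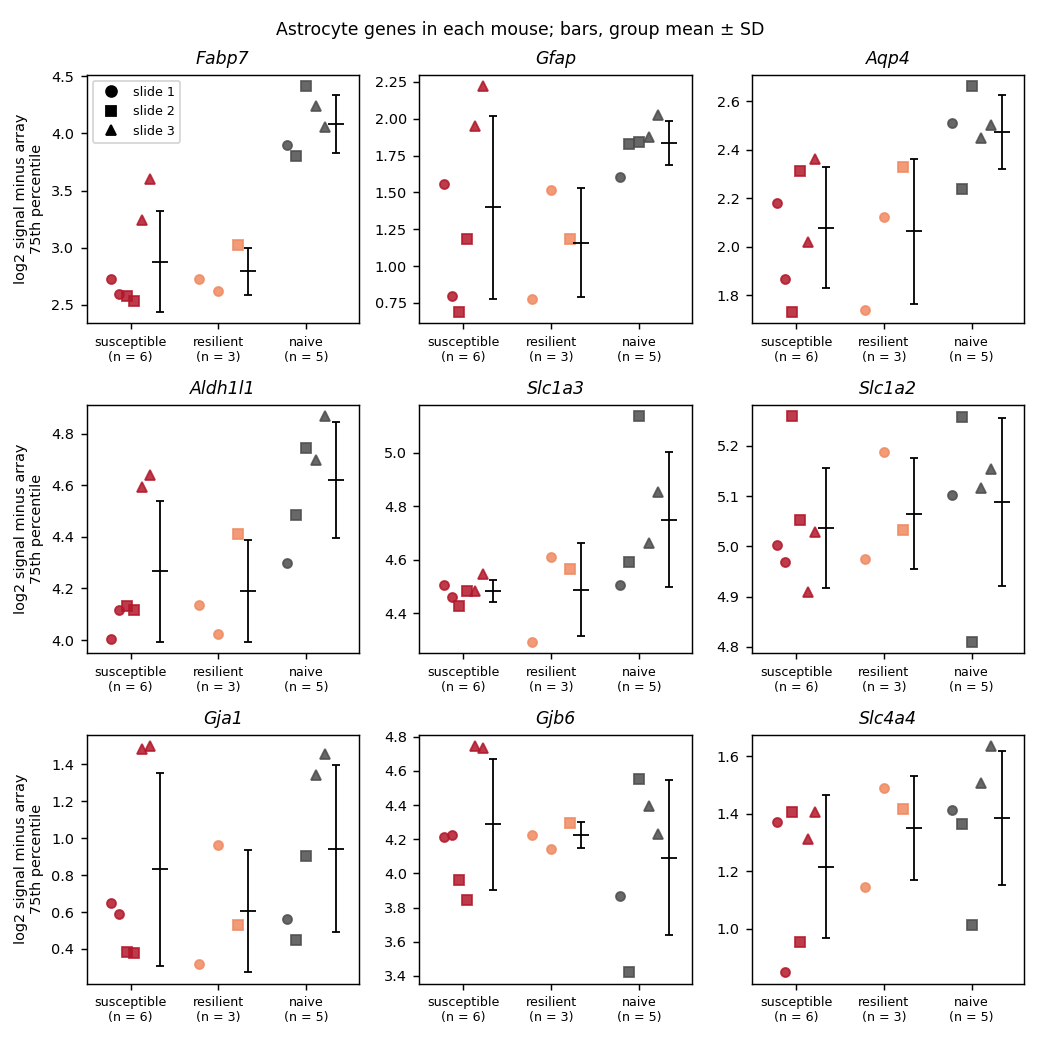
Log2 signal minus the array's 75th percentile (vertical axes, each panel on its own scale) for the 9 genes, with 1 point per mouse in the susceptible, resilient and naive groups, point shapes for the slide and bars for mean ± SD. Every Fabp7 value of a defeated mouse lies below the lowest naive value of 3.81. Susceptible and naive mice overlap for every other gene, and resilient and naive mice for all of those but Gfap. Gja1 is high on slide 3 in both groups found there.

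Gfap, Aqp4, Aldh1l1 and Slc1a3 had lower means in both defeated groups, by less than Fabp7 and without passing the test. Of the 8 genes other than Fabp7, 0 had a limma adjusted p under 0.05 in either contrast with naive mice, where 2.28% and 0.138% of all genes passed for susceptible and resilient mice. With the replicate number as a block, in which 5.33% of all genes passed for resilient mice, 0 of the 8 passed there too. In each of these contrasts 3 of the 8 had an unadjusted p under 0.05, beside 23.4% and 19.6% of all genes. The median difference of the 8 was -0.22 in susceptible and -0.30 in resilient mice, where the medians over all genes were 0.02 and 0.02. Of the 8, 7 lay below 0 in each contrast, beside 46.2% and 46.9% of all genes tested. Fabp7 is left out of this count, since its selection fixed its sign.

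Gfap varied more among susceptible mice than any other of the 9 genes. The susceptible mice had 0.69 at the lowest, 1.37 at the median and 2.22 at the highest, the resilient mice 0.78, 1.52 and 1.19, and the naive mice 1.60, 1.83, 1.84, 1.88 and 2.02. All 3 resilient mice lay below every naive value, as did 4 of the 6 susceptible mice, while both susceptible mice of slide 3 (1.95 and 2.22) were within or above the naive range. The log2 difference from naive mice was -0.44 ± 0.25 in susceptible mice (SE, n = 6 and 5; limma adjusted p = 0.304) and -0.68 ± 0.30 in resilient mice (n = 3 and 5; adjusted p = 0.234). In the resilient contrast 14.1% of all genes did not overlap, and 6.14% lay below every naive value in this way. By slide, susceptible minus naive was -0.43 on slide 1, -0.90 on slide 2 and 0.14 on slide 3, and without slide 3 the difference was -0.70 ± 0.22 (adjusted p = 0.0570). The SD was 0.62 in susceptible, 0.37 in resilient and 0.15 in naive mice. No group had a higher mean of Gfap than the naive mice.

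The 3 probes of Gfap differed in size but not in sign. A second probe, above background on all 14 arrays, had 0.27 at the lowest, 0.78 at the median and 1.59 at the highest in susceptible mice, 0.24, 0.86 and 0.52 in resilient mice, and 1.24, 1.32, 1.56, 1.30 and 1.48 in naive mice. Its log2 differences were -0.57 ± 0.20 (adjusted p = 0.128 over all probes) and -0.84 ± 0.25 (adjusted p = 0.110). The third probe was dim and well above background in 3 of 6 susceptible, 3 of 3 resilient and 3 of 5 naive mice, with differences of -0.32 ± 0.33 and -0.52 ± 0.40.

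Aqp4, the water channel of astrocyte end-feet, had 1.73 at the lowest, 2.10 at the median and 2.36 at the highest in susceptible mice, 1.74, 2.12 and 2.33 in resilient mice, and 2.51, 2.24, 2.66, 2.45 and 2.50 in naive mice. The groups overlapped only through naive mouse 2, and 4 of 6 susceptible and 2 of 3 resilient mice lay below every naive value. The log2 difference was -0.39 ± 0.14 in susceptible mice (SE; limma adjusted p = 0.116) and -0.41 ± 0.17 in resilient mice (adjusted p = 0.198). It was below 0 on each slide that held both groups, at -0.48, -0.43 and -0.28 for susceptible mice on slides 1, 2 and 3 and at -0.58 and -0.12 for resilient mice on slides 1 and 2. A second probe gave -0.54 ± 0.20 and -0.68 ± 0.24.

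Aldh1l1, a folate enzyme used as a general astrocyte marker, had 4.00 at the lowest, 4.12 at the median and 4.64 at the highest in susceptible mice, 4.14, 4.02 and 4.41 in resilient mice, and 4.30, 4.49, 4.74, 4.70 and 4.87 in naive mice. The 2 high susceptible mice were again those of slide 3 (4.59 and 4.64), and the naive mice of that slide had 4.70 and 4.87. The log2 difference was -0.35 ± 0.14 in susceptible mice (SE; limma adjusted p = 0.165) and -0.43 ± 0.17 in resilient mice (adjusted p = 0.195). With slide as a block, the susceptible difference was -0.30 ± 0.09 and passed the test (adjusted p = 0.0350), in a fit that called 15.1% of all genes. Aldh1l1 was the only gene of the 8 to pass in that fit. The difference was below 0 on all 3 slides, at -0.24, -0.49 and -0.17.

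Slc1a3 (GLAST) and Slc1a2 (GLT-1) encode the glutamate transporters of astrocytes, and their values differed in pattern. The Slc1a3 values of susceptible mice lay close together, at 4.43, 4.48 and 4.55 for the lowest, median and highest, with an SD of 0.04. The resilient mice had 4.29, 4.61 and 4.56 and the naive mice 4.51, 4.59, 5.14, 4.66 and 4.85. Of the susceptible mice, 5 of 6 lay below every naive value, and naive mouse 3 (5.14) was the highest. The log2 difference of Slc1a3 was -0.27 ± 0.11 in susceptible mice (SE; limma adjusted p = 0.172) and -0.26 ± 0.13 in resilient mice (adjusted p = 0.298). On slide 1 the susceptible difference was -0.02, and on slides 2 and 3 it was -0.41 and -0.24.

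Slc1a2 had 4.91 at the lowest, 5.02 at the median and 5.26 at the highest in susceptible mice, 4.98, 5.19 and 5.03 in resilient mice, and 5.10, 5.26, 4.81, 5.12 and 5.15 in naive mice. The 3 groups overlapped throughout. Its log2 difference was -0.05 ± 0.10 in susceptible mice (SE; limma adjusted p = 0.787; 95% interval -0.26 to 0.16) and -0.02 ± 0.12 in resilient mice (adjusted p = 0.938; -0.28 to 0.23). The intervals hold a change of the signal to no less than 0.83 times and no more than 1.17 times the naive signal. The 2 other probes of Slc1a2 had differences of 0.21 ± 0.18 and 0.00 ± 0.13 in susceptible mice and of 0.44 ± 0.22 and 0.14 ± 0.16 in resilient mice, so the sign depended on the probe.

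Gja1 (connexin 43) and Gjb6 (connexin 30) form the gap junctions of astrocytes. Gja1 had 0.38 at the lowest, 0.62 at the median and 1.50 at the highest in susceptible mice, 0.32, 0.96 and 0.53 in resilient mice, and 0.56, 0.45, 0.90, 1.34 and 1.46 in naive mice. All 4 arrays of slide 3 lay between 1.34 and 1.50 and the other 10 between 0.32 and 0.96. On slides 1 and 2 the 3 groups overlapped, and on slide 3 both susceptible values (1.48 and 1.50) lay above both naive values (1.34 and 1.46). The log2 difference of Gja1 was -0.11 ± 0.25 in susceptible mice (SE; limma adjusted p = 0.821) and -0.34 ± 0.31 in resilient mice (adjusted p = 0.576), and the same differences with slide as a block were -0.06 ± 0.12 and -0.01 ± 0.16.

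Gjb6 was the only gene of the 9 with a higher mean in both defeated groups. It had 3.84 at the lowest, 4.22 at the median and 4.74 at the highest in susceptible mice, 4.23, 4.15 and 4.30 in resilient mice, and 3.87, 3.42, 4.55, 4.39 and 4.23 in naive mice. The log2 difference was 0.19 ± 0.21 in susceptible mice (SE; limma adjusted p = 0.603) and 0.13 ± 0.25 in resilient mice (adjusted p = 0.815), and the low value of naive mouse 2 (3.42) lay outside the range of both defeated groups. Without that mouse the resilient difference was -0.04.

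Slc4a4 encodes the sodium bicarbonate cotransporter NBCe1, which astrocytes use to buffer pH. It had 0.85 at the lowest, 1.34 at the median and 1.41 at the highest in susceptible mice, 1.15, 1.49 and 1.42 in resilient mice, and 1.41, 1.36, 1.01, 1.51 and 1.64 in naive mice. The groups overlapped, with log2 differences of -0.17 ± 0.14 in susceptible mice (SE; limma adjusted p = 0.484) and -0.04 ± 0.17 in resilient mice (adjusted p = 0.931). A second probe gave -0.18 ± 0.14 and -0.01 ± 0.17. The dimmest probe differed more, at -0.47 ± 0.15 (adjusted p = 0.105 over all probes) and -0.52 ± 0.18 (adjusted p = 0.152), and all its resilient values (-1.97, -2.07 and -1.91) were below its naive values (-1.57, -1.81, -1.31, -1.22 and -1.40), as were those of 6.14% of all genes.

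**Figure D2:**
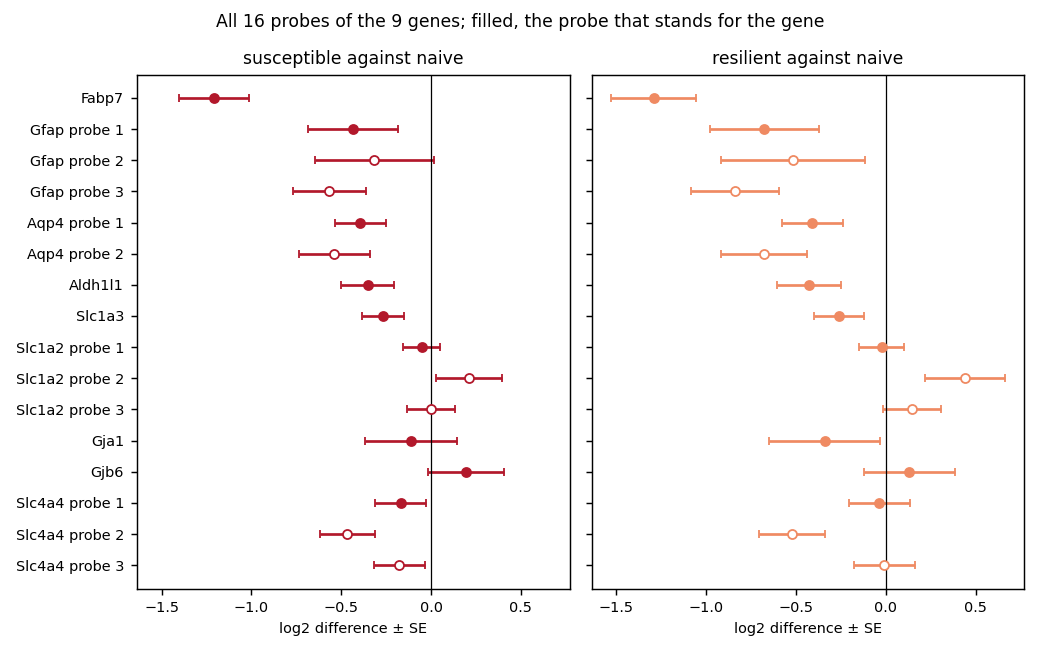
Log2 difference ± SE (horizontal axes) for each of the 16 probes of the 9 genes, in susceptible against naive mice on the left and resilient against naive mice on the right. Fabp7 stands lowest at -1.21 and -1.29, the probes of Gfap and Aqp4 all lie below 0, and the 3 probes of Slc1a2 lie around 0 with the second at 0.21 and 0.44.

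No difference between susceptible and resilient mice passed the test in these genes. Of the 8 genes other than Fabp7, 0 passed the test between the defeated groups (0% of all genes), 0 had an unadjusted p under 0.05, and the limma adjusted p was 0.9999 for each. The log2 differences of susceptible minus resilient mice ran between -0.13 (Slc4a4, SE 0.16) and 0.24 (Gfap, SE 0.29). For Gfap the 95% interval ran from -0.38 to 0.86, so with 6 and 3 mice a susceptible signal 1.82 times the resilient one lies within it. The signs of this contrast depended on slide: 3 of the 9 genes lay below 0, against 8 of 9 with slide as a block and 8 of 9 without slide 3, and no gene passed in any of these fits.

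Fabp7 was also set against the mean of the other 8 genes in the same mouse, each taken relative to its naive mean. In susceptible mice Fabp7 lay below that mean by 1.15, 1.08, 1.11, 1.20, 0.88 and 0.64 on the log2 scale, in resilient mice by 0.91, 1.32 and 0.88, and in naive mice the values were -0.02, -0.08, 0.27, 0.05 and -0.22. Fabp7 was selected on its low signal in these defeated mice, so this distance restates the selection on another scale and supports nothing further. The mean of the 8 genes itself was -0.41 to 0.16 in susceptible mice, -0.45 to -0.14 in resilient mice and -0.19 to 0.19 in naive mice, and the 2 susceptible mice above 0 (0.04 and 0.16) were those of slide 3.

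**Figure D3:**
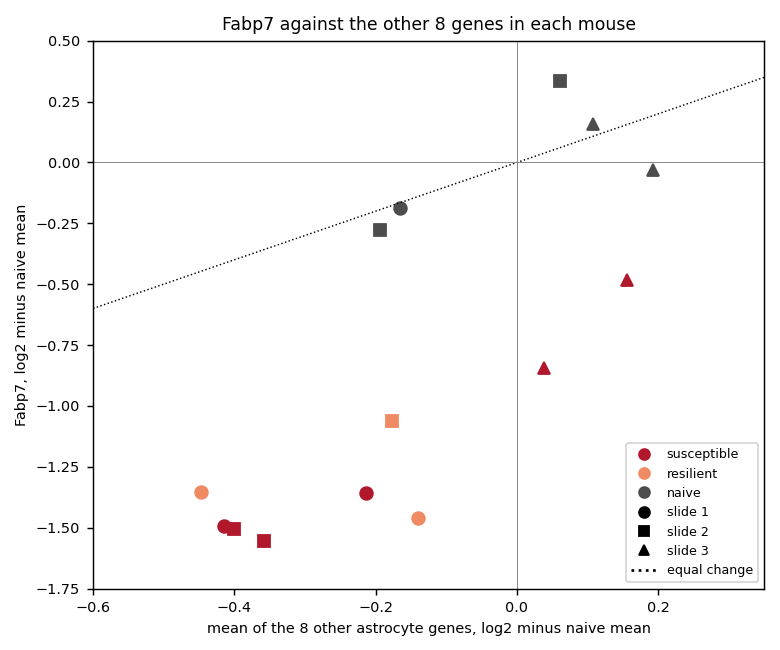
Fabp7 (vertical axis) against the mean of the 8 other genes (horizontal axis) in each of the 14 mice, both as log2 signal minus the naive mean, with colours for the group, shapes for the slide and a dotted line of equal change; Fabp7 was selected on its low values in defeated mice. The naive mice scatter about the line within 0.27, and the 9 defeated mice lie 0.64 to 1.32 below it.

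Within groups, mice with more Fabp7 tended to have more of some astrocyte genes, and of many other genes as well. After each group's mean was subtracted, the Pearson correlation with Fabp7 over the 14 arrays was 0.86 for Gjb6, 0.85 for Aldh1l1, 0.73 for Gja1, 0.72 for Gfap, 0.50 for Aqp4, 0.43 for Slc1a3, 0.21 for Slc4a4 and -0.51 for Slc1a2. These 14 points share slides, and array brightness moved with the same genes, with within-group correlations of 0.54 for Fabp7, 0.69 for Aldh1l1, 0.63 for Gjb6 and 0.85 for Gja1, against -0.09 for Slc1a2. The part of brightness in these values was not tested. Among 14452 other genes, the correlations with Fabp7 ranked 123 for Gjb6, 161 for Aldh1l1, 1052 for Gja1 and 1110 for Gfap. Those of Aqp4, Slc1a3, Slc4a4 and Slc1a2 ranked 3776, 4712, 7286 and 12204.

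The genes most like Fabp7 by the same measure, among 14452 others, were Ranbp3l (0.97), Mtrf1 (0.96), Mical1 (0.95), the BMP receptor Bmpr1a (0.94) and the microsomal glutathione transferase Mgst1 (0.94). Without the arrays of slide 3 the values over the other 10 arrays were 0.91, 0.99, 0.94, 0.90 and 0.86 in the same order. Of these 5 genes only Mical1, a flavin monooxygenase that oxidises actin, passed the test against naive mice, with a log2 difference of -0.69 ± 0.13 in susceptible mice (SE; limma adjusted p = 0.0269) and -0.77 ± 0.16 in resilient mice, which did not pass (adjusted p = 0.0696). The 6 susceptible mice had 0.80 to 1.41, the 3 resilient mice 0.93, 0.72 and 1.17, and the 5 naive mice 1.51 to 1.89. The susceptible call of Mical1 held in 9 of 14 fits that left out 1 mouse, with adjusted p up to 0.0698. Mtrf1, a mitochondrial peptide release factor, followed Fabp7 within groups and had a susceptible difference of 0.01 ± 0.23 (adjusted p = 0.984).

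The order of protein-coding genes around Fabp7 on chromosome 10 is Gja1, Hsf2, Serinc1, Pkib, Fabp7 and Smpdl3a, and these were looked at after the values were seen. Hsf2, a heat shock transcription factor, was higher in susceptible mice by 0.34 ± 0.08 on the log2 scale (SE; limma adjusted p = 0.0435, past the threshold in 2 of 14 fits that left out 1 mouse). Serinc1 and Pkib had differences of -0.07 ± 0.10 and 0.00 ± 0.11, and Smpdl3a, next to Fabp7 on the other side, had -0.41 ± 0.15 (adjusted p = 0.135).

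Gene lists were also read in fits that take slide into account, since calls depended on it across the whole array. In the main fit without covariates 2.28% of all genes passed in susceptible mice (1.45% higher and 0.83% lower). In resilient mice it was 0.138% (0.0761% higher and 0.0623% lower). With slide as a block 15.1% of all genes passed in susceptible mice (6.1% lower and 9.03% higher) and 3.92% in resilient mice (1.52% lower and 2.41% higher). Without the arrays of slide 3, 13.4% passed in susceptible mice (5.42% lower and 8% higher) and 11.5% in resilient mice (4.21% lower and 7.33% higher). With the replicate number as a block, under which same-numbered resilient and naive mice deviated together in all 3 pairs, 5.33% passed in resilient mice (2.17% lower and 3.16% higher). The counts of each list below are to be read against these shares.

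Of the other fatty acid-binding proteins, 4 of 9 were tested and 0 passed in either contrast. Fabp3, the heart-type protein that is found in neurons of the adult brain, had a log2 difference of 0.33 ± 0.09 in susceptible mice (SE; limma adjusted p = 0.0615) and 0.40 ± 0.11 in resilient mice (adjusted p = 0.101), and its values in both defeated groups lay above every naive value, as did 2.33% and 7.94% of all genes in these contrasts. Fabp5, the epidermal-type protein, had -0.17 ± 0.12 and -0.25 ± 0.14 (adjusted p = 0.409 and 0.361). Fabp2 and Fabp12 were dim, with susceptible differences of 0.37 ± 0.20 and 0.43 ± 0.24 and resilient differences of 0.29 ± 0.24 and 0.64 ± 0.29, none of which passed. Under a block for slide Fabp3 passed as higher in susceptible mice (0.33 ± 0.09, limma adjusted p = 0.0256), and without slide 3 none of the 4 passed. Among 21 tested genes of fatty acid and lipid handling and its regulation, 1 was higher in susceptible mice. It was Mfsd2a, the transporter of docosahexaenoic acid at the blood-brain barrier, by 0.78 ± 0.18 (limma adjusted p = 0.0435). The call held in 3 of 14 fits that left out 1 mouse, and 14 of the 21 differences lay below 0. In resilient mice 0 of 21 passed, and the smallest p was that of Dbi, the acyl-CoA-binding protein, at -0.66 ± 0.17 (adjusted p = 0.0929). The slide block gave 2 higher genes in susceptible mice (Mfsd2a and Acsl5) and 3 lower ones (Slc27a4, Dbi and Apoe), and 1 higher gene in resilient mice (Mfsd2a). Without slide 3, 2 were higher and 2 lower in each contrast. With the replicate block Mfsd2a was higher (0.88 ± 0.21, adjusted p = 0.0442) and Dbi lower (-0.69 ± 0.16, adjusted p = 0.0392) in resilient mice.

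A wider set of 30 astrocyte genes lay mostly below 0. In susceptible mice 2 of 30 were lower (6.67%, beside 0.83% of all genes) and 0 were higher. Aldoc, the brain aldolase, was 8.52 to 8.90 in the 6 susceptible mice and 9.05 to 9.47 in the 5 naive mice, with no overlap, as for 1.49% of all genes that lay below, a log2 difference of -0.52 ± 0.10 (SE; limma adjusted p = 0.0339). Kcnj10 (Kir4.1), the potassium channel of astrocyte end-feet, was 3.84 to 4.37 in susceptible mice and 4.35 to 4.83 in naive mice, a difference of -0.59 ± 0.13 (adjusted p = 0.0390). These calls held in 8 and 6 of the 14 fits that left out 1 mouse, with adjusted p up to 0.0713 and 0.0898. Altogether 24 of the 30 differences lay below 0, with a median of -0.24. In resilient mice 0 of 30 passed in limma (beside 0.0761% of all genes higher and 0.0623% lower), 26 lay below 0 with a median of -0.34, and Ndrg2, a differentiation-linked astrocyte gene, had the smallest p at -0.76 ± 0.17 (adjusted p = 0.0762). The list was drawn up with results of these arrays known and is no independent support.

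With slide as a block, 10 of the 30 were lower in susceptible mice and 0 higher, among them S100b (-0.59 ± 0.13), Sox9 (-0.51 ± 0.16), Mlc1 (-0.31 ± 0.09) and Ndrg2 (-0.52 ± 0.12), and 2 were lower in resilient mice (Aldoc and Ndrg2). Without the arrays of slide 3, 7 were lower in susceptible and 5 in resilient mice and 0 were higher. With the replicate block 6 were lower in resilient mice (Aldoc, S100b, Kcnj10, Ndrg2, Ppp1r3c and Slc25a18) and 0 higher. The mean of the 30 genes, each relative to its naive mean, was 0.20 and 0.24 in the 2 naive mice of slide 3 and -0.06 and 0.11 in its 2 susceptible mice, against -0.20 to -0.08 in the other naive mice and -0.42 to -0.30 in the other susceptible mice.

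**Figure D4:**
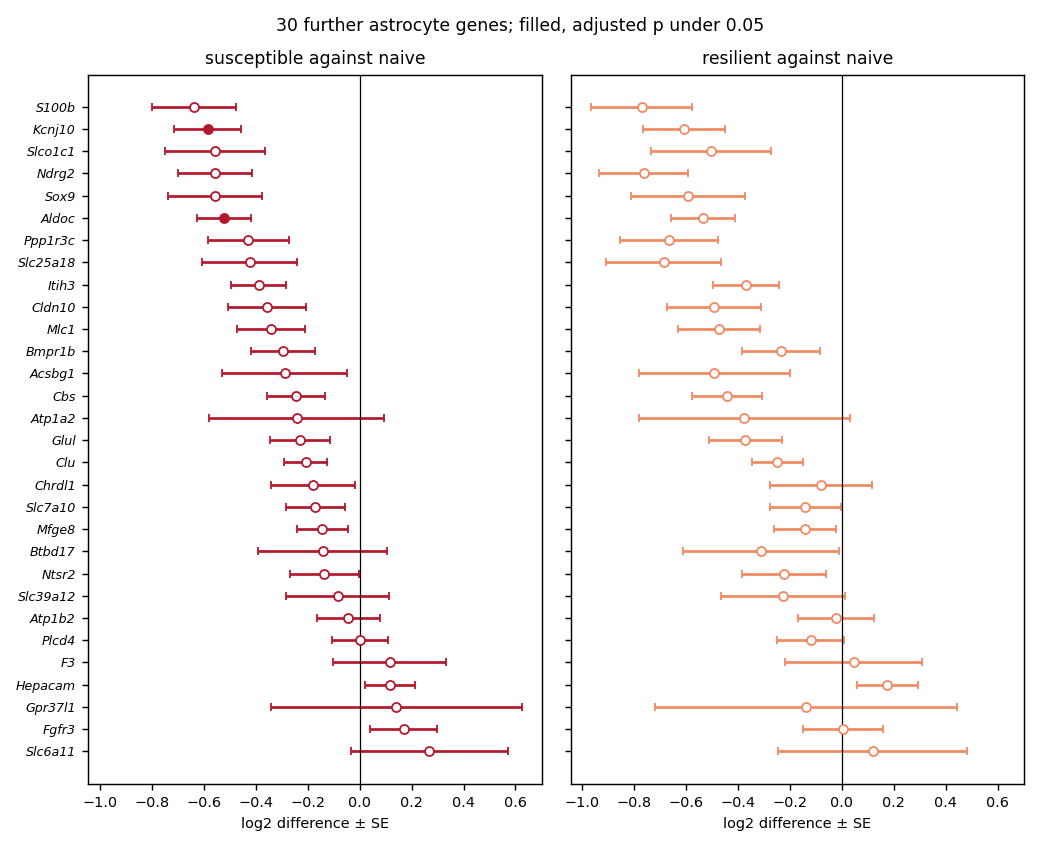
Log2 difference ± SE (horizontal axes) of 30 further astrocyte genes in susceptible against naive mice on the left and resilient against naive mice on the right, with filled points for adjusted p under 0.05. Of these, 24 and 26 lie below 0, and only Aldoc and Kcnj10 in susceptible mice are filled.

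Genes of end-foot water and potassium handling were described next to Aqp4. Of 12 tested, 1 (Kcnj10, counted above) was lower in susceptible mice and 0 passed in resilient mice, where Kcnj10 had -0.61 ± 0.16 (SE; limma adjusted p = 0.0952). The medians of the 12 differences were -0.06 and -0.14. Under the slide block 3 were lower in susceptible mice (Kcnj10, Kcnj16 and Mlc1), and 3 were without slide 3. In resilient mice Kcnj10 was lower with the replicate block (-0.52 ± 0.12, adjusted p = 0.0390), and Dag1 was higher without slide 3. Of 16 genes of glutamate, GABA and bicarbonate handling, 1 was higher in susceptible mice (beside 1.45% of all genes) and 0 were lower (beside 0.83%). It was Slc1a1 (EAAC1), the glutamate transporter of neurons, at 0.42 ± 0.10 (adjusted p = 0.0440), a call that held in 2 of 14 fits that left out 1 mouse. In resilient mice 0 of 16 passed, and Slc1a1 had 0.41 ± 0.12 (adjusted p = 0.113). Under the slide block 3 of the 16 were lower in susceptible mice: the glutamine transporters Slc38a3 (-0.56 ± 0.10, limma adjusted p = 0.0092) and Slc38a5 (-1.18 ± 0.29, adjusted p = 0.0225) and the carbonic anhydrase Car2 (-0.51 ± 0.14, adjusted p = 0.0343). Without slide 3, 3 were lower in susceptible mice, and in resilient mice 1 was lower (Grm5) and 1 higher (Slc1a1).

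Of 23 radial glia and Notch pathway genes, 1 was lower in susceptible mice and 20 lay below 0. Nes (nestin), an intermediate filament of neural progenitors that vessels express too, was -0.21 to 0.46 in the 6 susceptible mice, 0.20, -0.13 and 0.41 in the 3 resilient mice, and 0.71 to 0.97 in the 5 naive mice. No defeated mouse overlapped the naive mice for Nes, as for 1.07% of all genes that lay below in both groups. The log2 difference was -0.73 ± 0.12 in susceptible mice (SE; limma adjusted p = 0.0192, past the threshold in 12 of 14 fits that left out 1 mouse) and -0.69 ± 0.15 in resilient mice (adjusted p = 0.0748). Nes passed as lower in resilient mice with slide as a block, without slide 3 and with the replicate block (limma adjusted p = 0.0414, 0.0346 and 0.0427). Notch3 was lower and Dll1 higher in susceptible mice with slide as a block.

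Genes that are raised in reactive astrocytes were mixed in direction. Among 9 tested genes of the list shared by several kinds of reactive astrocyte, Lcn2, a secreted iron-siderophore binder, rose in both defeated groups (by 3.37 ± 0.42 and 2.84 ± 0.51 on the log2 scale, SE; limma adjusted p = 0.0147 and 0.0440), and the resilient call held in 2 of 14 fits that left out 1 mouse. The other 8 did not pass. Under a block for slide the cytokine receptor subunit Osmr (0.90 ± 0.24, adjusted p = 0.0276) and Serpina3n (1.22 ± 0.27, adjusted p = 0.0170) were higher in susceptible mice, and Osmr was higher in resilient mice with the replicate block (1.03 ± 0.25, adjusted p = 0.0463). Vim, a filament partner of Gfap, had -0.54 ± 0.26 and -0.62 ± 0.31 (adjusted p = 0.222 and 0.278). Of 9 tested genes of the list linked to inflammation, 1 was higher in susceptible mice, Fkbp5, a chaperone that glucocorticoids induce, by 1.38 ± 0.26 (adjusted p = 0.0284, past the threshold in 10 of 14 fits that left out 1 mouse). In resilient mice it had 1.31 ± 0.31 (adjusted p = 0.0857). The other 8 did not pass and had susceptible differences between -1.01 (Serping1) and -0.40 (H2-T23). Of 6 tested genes of the list linked to ischaemia, 0 passed, and Cd14 had the smallest p in susceptible mice at 0.60 ± 0.18 (adjusted p = 0.0828). Tm4sf1 had the smallest p in resilient mice at -0.99 ± 0.40 (adjusted p = 0.195). Once slide was a block Iigp1 of the inflammation list was lower in susceptible mice, and of the ischaemia list Cd14 was higher and Tm4sf1 lower. Endothelial cells, microglia and leukocytes also express several genes of these lists.

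Markers of other cells moved beside the astrocyte genes, and their part in these differences was not tested. The 9 meningeal fibroblast markers all lay below 0, with medians of -1.06 in susceptible and -1.14 in resilient mice. Of these 9, 6 were above background on all 14 arrays, and the signs of the others may depend on the filter. The mean of the 9 relative to naive mice was -2.49 to 0.02 in susceptible, -2.44 to 0.22 in resilient and -0.84 to 0.68 in naive mice. None of the 9 passed the test in limma, and those with the smallest p were Igf2 in susceptible mice (-0.71 ± 0.28, adjusted p = 0.151) and Dcn in resilient mice (-1.46 ± 0.54, adjusted p = 0.163). Endothelial markers had medians of -0.58 and -0.55 over 8 genes, and 1 was lower in susceptible mice, the organic anion transporter Slco1a4 (-0.72 ± 0.17, limma adjusted p = 0.0435; past the threshold in 2 of 14 fits that left out 1 mouse; without slide 3 adjusted p = 0.0693). Its resilient difference was -0.65 ± 0.20 (limma adjusted p = 0.121). Mural markers had medians of -0.52 and -0.28 over 7 genes, and 0 passed, with Pdgfrb (-0.52 ± 0.20) and Myl9 (-0.71 ± 0.42) first by p in susceptible and resilient mice. Neuron markers lay above 0 in 7 and 8 of 8 genes, with medians of 0.23 and 0.27, and 0 passed, with Nefl (0.25 ± 0.10) and Tubb3 (0.32 ± 0.12) first by p.

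Oligodendrocyte precursor markers had medians of 0.05 and 0.15 over 8 genes, oligodendrocyte markers -0.31 and -0.11 over 9, and microglia markers 0.02 and -0.20 over 9, with 0 called in each list before slide was taken into account. Once slide was a block 2 precursor markers were higher in susceptible mice (Gpr17 and Tnr) and 1 in resilient mice (Gpr17), and Mog of the oligodendrocyte list and Aif1 of the microglia list were lower in susceptible mice. Aif1 was also lower in resilient mice without slide 3 and with the replicate block (limma adjusted p = 0.0357 and 0.0289). The genes with the smallest p were Tnr among precursor markers (0.59 ± 0.18 and 0.76 ± 0.22), Cnp among oligodendrocyte markers (-0.55 ± 0.24 and -0.43 ± 0.29) and Aif1 among microglia markers (-0.61 ± 0.16 and -0.79 ± 0.19). The 4 tested erythroid genes all lay above 0 (medians 1.63 and 0.95), and the 6 tested ependymal and choroid plexus markers were split 3 and 3 in each contrast, with 0 called in both lists. Hbb-bt came first by p among erythroid genes (1.97 ± 0.63 and 1.23 ± 0.76), Ttr among ependymal and choroid plexus markers in susceptible mice (-1.72 ± 0.45) and Ccdc153 in resilient mice (0.56 ± 0.18). Under the slide block Ttr was lower and Hbb-bt higher in susceptible mice, and 3 endothelial markers were lower (Flt1, Slco1a4 and Abcb1a). None of the endothelial markers passed without slide 3. Without slide 3, 2 neuron markers and 2 erythroid genes (Hba-a2 and Hbb-bt) were higher in susceptible mice. In resilient mice 1 neuron marker and 0 erythroid genes were higher in that fit. With the replicate block 1 meningeal marker, Col3a1, was lower in resilient mice. Between susceptible and resilient mice 0 genes passed in any of these lists.

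**Figure D5:**
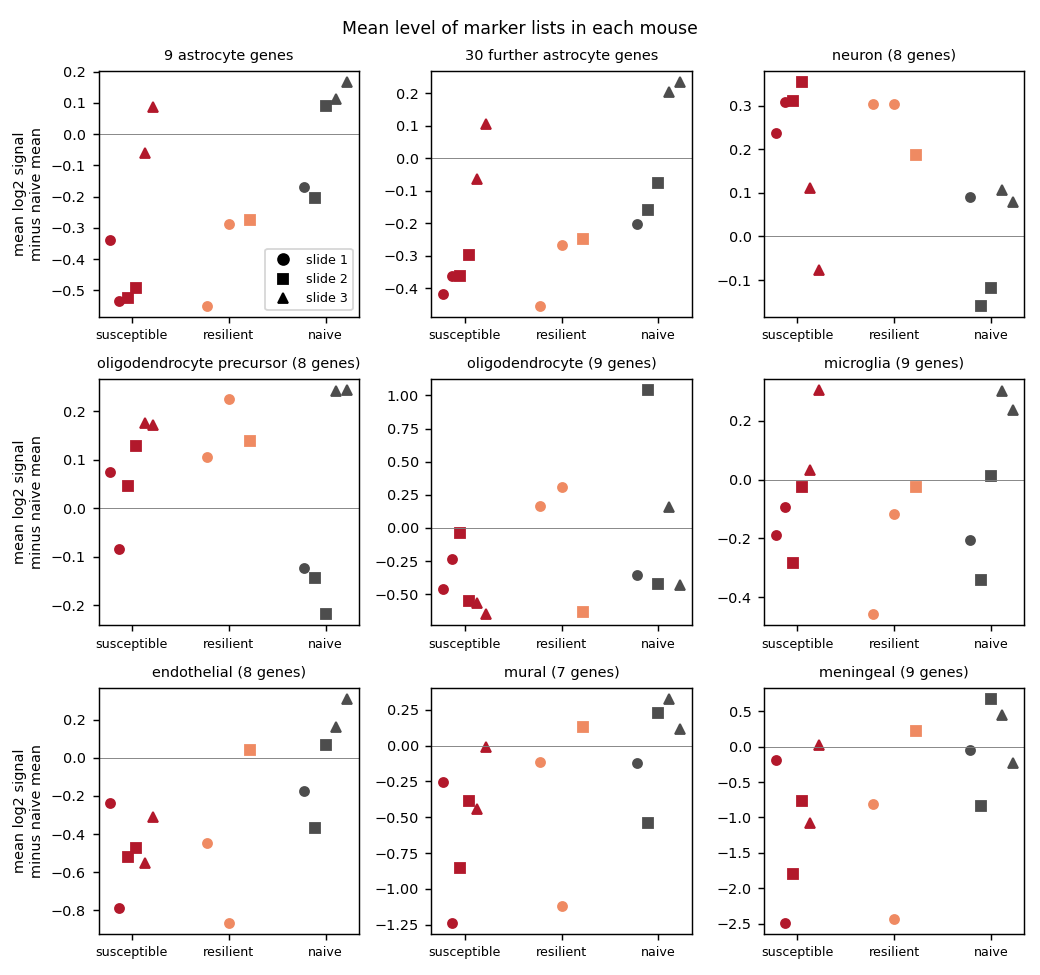
Mean log2 signal of marker lists in each mouse, relative to the naive mean (vertical axes, each panel on its own scale), in the susceptible, resilient and naive groups, with point shapes for the slide. The 30 further astrocyte genes are highest on slide 3 within both groups found there, and the meningeal list spans -2.49 to 0.68 over the 14 mice, a wider range than the -0.55 to 0.17 of the 9 astrocyte genes.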

How the data were processed

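The deposited scanner output gives the intensity of each spot on a linear scale, from Agilent Feature Extraction 11.0.1.1 per the submitters' processing notes, and its processed signal already has the background taken off. The authors' deposited value table holds log2 values of the same arrays and was used as an alternative. The processed signal was averaged over a probe's spots, leaving out control and outlier spots, and expressed as log2 minus the 75th percentile of that array. A probe was kept where every array of some group had it well above background, and the brightest probe stood for a gene. Names came from RefSeq transcripts (GRCm38.p6) without versions, and 28172 of 55681 probes stayed unnamed. The 3 groups were compared in 1 limma fit (version 3.58.1, R 4.3.3; lmFit, eBayes) of all 14 arrays without covariates, with Benjamini-Hochberg adjustment over all 14453 genes and calls at an adjusted p under 0.05. Values per probe come from a fit of 29813 probes. The mouse is the replicate. The steps were run on simulated arrays with independent noise and no slide effects, so that check says nothing about calls that depend on slide.

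The genes and lists were chosen with earlier results of these data known. The text names all 9 genes with every probe, each measured fatty acid-binding protein, up to 4 genes past the threshold per list and contrast or else the 1 with the smallest p (for contrasts with naive mice), and the 5 genes most like Fabp7. Serinc1, Pkib, Hsf2, Smpdl3a, Vim, Serping1, H2-T23 and the further genes named only from fits with a block or without slide 3 fall outside this rule and were named after their values were seen. Same-numbered resilient and naive mice deviated together in all 3 pairs (r = 0.11, 0.32 and 0.28), so the replicate block is given beside that contrast. The mice numbered 1 in these groups shared slide 1 and those numbered 3 shared slide 2. Number and slide cannot be told apart in those pairs. The pairs of the other contrasts did not all do so, and the labels do not say what a number stands for. Alternatives were normexp (offset 50, on median signals), quantile normalization, other filters, averaging the probes of a gene, the authors' table, slide, scan day or replicate number as a block, a fit of just the 2 groups of a contrast, and dropping single mice. Leaving out slide 3 was added after seeing the data.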

Additional observations from a re-analysis of the deposited data

How the results depend on the processing

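Fabp7 stayed lower in both defeated groups in every fit. Leaving out each mouse gave -1.35 to -1.12 in susceptible and -1.41 to -1.21 in resilient mice, and the other alternatives gave -1.44 to -1.11 and -1.29 to -1.06. Of the other 8 genes, 0 passed in any fit that left out 1 mouse, and 1 (Aldh1l1) passed in susceptible mice with slide, scan day or the replicate number as a block (adjusted p = 0.0350, 0.0390 and 0.0251). The count of all genes called is far less stable, and the cause was not tested. For susceptible mice it was 329, and 110 with normexp, 580 with quantile normalization, 0 with no filter, 2187 with slide and 2462 with scan day as a block, 1696 with the replicate block, 58 with only the 2 groups and 1940 without slide 3, and 1 (without susceptible mouse 1) to 748 (without susceptible mouse 6) without 1 mouse. For resilient mice it was 20, and in the same order 0, 40, 0, 567, 1458, 770, 0 and 1669, and 0 to 73 without 1 mouse; between the defeated groups it was 0 to 1. In the susceptible contrasts same-numbered mice did not deviate together in every pair. The r ran from -0.37 to 0.71 against naive mice and from -0.38 to 0.39 against resilient mice. What the number stands for is not known, and number and slide cannot be told apart in pairs that shared a slide. The replicate block also sets susceptible mouse 6, which has no same-numbered naive mouse, aside.

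Signs turned for genes near 0 that passed no test. Slc1a2 became 0.0617, 0.0156, 0.0539 and 0.0143 in susceptible and 0.0803, 0.0904, 0.187 and 0.0087 in resilient mice with normexp, quantile normalization, the mean of probes and without slide 3. Slc4a4 in resilient mice became 0.0655, 0.0682, 0.0113 and 0.0881 with slide, scan day and replicate block and without slide 3, and Gja1 became 0.0134 with scan day as a block. Between the defeated groups Fabp7 became -0.102, -0.0738, -0.131 and -0.186 with slide, scan day and replicate block and without slide 3, and Gfap became -0.0741 with the replicate block and -0.104 without slide 3. With slide as a block Aqp4 (-0.04), Aldh1l1 (-0.10), Gja1 (-0.05) and Gjb6 (-0.10) also turned below 0 there. Leaving out each mouse gave ranges across 0 for Gja1 in susceptible mice (-0.246 to 0.0155), for Slc1a2 (-0.0922 to 0.0223), Gjb6 (-0.0375 to 0.245) and Slc4a4 (-0.129 to 0.0673) in resilient mice, and for Fabp7 between the defeated groups (-0.0586 to 0.202). The number of arrays limits the precision, and with slide as a block the SE of Gja1 in susceptible mice was 0.12, against 0.25 without it.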
